A study of Mus musculus with 64 samples.

Results

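F2 male mice were compared by their genotype at D14Mit107, the most distal of the 3 markers typed on chromosome 14, which the deposited table places at 63 cM. The mice came from an intercross of C57BL/6J (B6), a lean reference strain, and TALLYHO/JngJ (TH), an inbred strain with polygenic obesity, raised plasma lipids and diabetes in males. Members were chosen by the genotype column alone, and 390 of the 393 mice of the table had a call: 82 were homozygous for the B6 allele (B6/B6), 209 were heterozygous (B6/TH) and 99 were homozygous for the TH allele (TH/TH). All 3 genotypes shared the sex, the cross and a standard rodent chow. Each male was weighed and bled after a 4-hour fast on 5 occasions between 8 and 24 weeks of age, 4 weeks apart, and at the end the fat pads and the carcass were weighed. Each mouse is 1 sample, values are given as mean ± SEM with the genotypes always in the order B6/B6, B6/TH, TH/TH, and p-values come from an F test among the 3 genotypes adjusted over all 39 traits at all 68 markers (Benjamini-Hochberg over 2652 tests, called below 0.05) unless stated. Traits derived from these, such as gains, shares and means over ages, were adjusted separately over 1428 tests, and interactions over 2535.

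In an F2 intercross each mouse inherits a reshuffled copy of both parental genomes, so a marker reports on a long linked stretch of chromosome and not on a single gene. Body weight in such a cross is a sum of lean and fat tissue. Carcass weight, what is left once the dissected pads are removed, serves as a proxy of lean mass, while the inguinal and subscapular pads sample subcutaneous fat and the epididymal, mesenteric and retroperitoneal pads sample fat inside the abdomen. The study had already linked carcass weight to D14Mit107 in these same mice, so the carcass values below are a description of that link and no independent support for it.

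Mice homozygous for the TH allele, the allele of the obese parent, were the lighter mice. Carcass weight ran from 23.1 g through a median of 34.1 g to 43.8 g in B6/B6 mice (n = 81), from 25.8 g through 33.3 g to 47.4 g in B6/TH mice (n = 194) and from 26.0 g through 32.2 g to 42.7 g in TH/TH mice (n = 96). The 3 ranges overlapped almost entirely, and the groups differed in where most mice lay: 78.1% of TH/TH mice weighed less than the median B6/B6 mouse. The means were 34.2 ± 0.450 g, 33.8 ± 0.292 g and 32.0 ± 0.373 g in the same order. The difference of TH/TH from B6/B6 carcasses was −2.20 g (95% interval −3.38 to −1.02 g) or −6.44%, and genotype accounted for 4.53% of the variance (adjusted p = 0.0218, permutation p = 0.00021 with 100000 resamples). Heterozygotes differed from B6/B6 mice by −0.38 g (−1.41 to 0.65 g) and lay 1.82 g (0.85 to 2.80 g) above the TH/TH mice. Among the mice with a value of every trait the carcass difference was −2.26 g, and the F test among the 3 genotypes missed the threshold (n = 319, adjusted p = 0.0587).

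**Figure D1:**
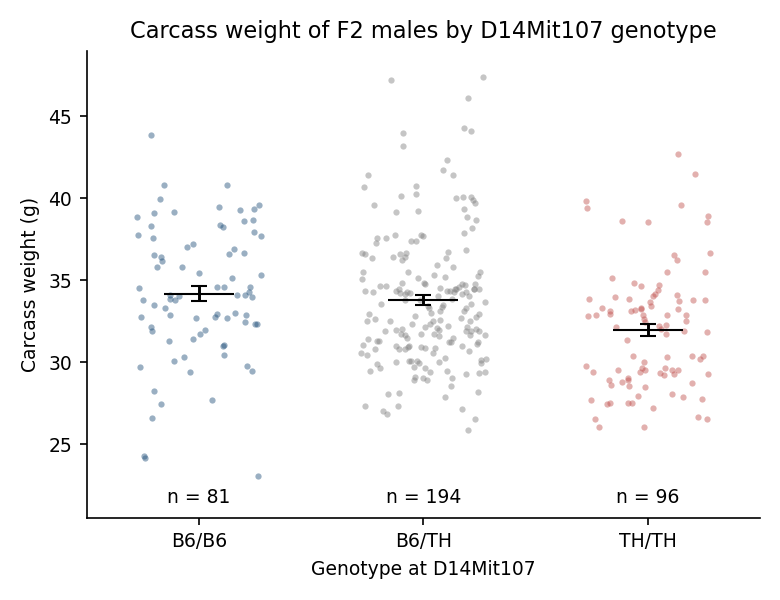
Carcass weight in g (y axis) of each F2 male by genotype at D14Mit107 (x axis). Points are mice, bars are mean ± SEM. The TH/TH mean of 32.0 g lies below the means of 34.2 g and 33.8 g, while the 3 clouds of points overlap.

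TH/TH mice had the lowest mean body weight at every age, and the other genotypes lay close together. The means at 8 weeks were 29.5 ± 0.342 g (n = 82), 29.4 ± 0.209 g (n = 203) and 28.3 ± 0.264 g (n = 98), with ranges of 20.9 to 37.2 g, 22.9 to 39.8 g and 21.3 to 35.7 g around medians of 29.4, 29.3 and 28.2 g. At 12 weeks they were 33.1 ± 0.437, 33.1 ± 0.263 and 31.6 ± 0.347 g (n = 82, 203 and 98), where the heterozygotes differed from B6/B6 mice by 0.03 g (−0.92 to 0.99 g). By 16 weeks they had reached 35.9 ± 0.523 g for 81 B6/B6 mice, 35.7 ± 0.315 g for 202 heterozygotes and 33.7 ± 0.395 g for 98 TH/TH mice. The means at 20 weeks were 38.2 ± 0.582, 37.9 ± 0.348 and 35.7 ± 0.463 g (n = 81, 199 and 96), so that TH/TH mice again lay below both other genotypes. The last weighing gave 40.2 ± 0.635 g for 81, 39.9 ± 0.411 g for 195 and 37.5 ± 0.525 g for 96 mice, and its ranges, 25.5 to 52.6 g, 24.6 to 59.2 g and 27.6 to 54.8 g around medians of 40.2, 39.3 and 37.5 g, again overlapped.

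Body weight passed the threshold of the F test among the 3 genotypes from 16 weeks on. The difference of TH/TH from B6/B6 mice was −1.15 g (−2.01 to −0.30 g) at 8 weeks (adjusted p = 0.118, permutation p = 0.00495) and −1.52 g (−2.61 to −0.42 g) at 12 weeks (adjusted p = 0.0672, permutation p = 0.00226), and body weight was called at neither age. The difference was −2.19 g at 16 weeks (adjusted p = 0.0321, permutation p = 0.00047), −2.49 g at 20 weeks (adjusted p = 0.0337) and −2.71 g at 24 weeks (adjusted p = 0.0405), or −6.11%, −6.51% and −6.74% of the B6/B6 mean. Weight at death averaged 39.5 ± 0.636, 39.3 ± 0.410 and 36.8 ± 0.521 g (n = 81, 195 and 96), a difference of −2.73 g (−4.38 to −1.08 g, adjusted p = 0.0337, permutation p = 0.00041). These weights come from the same animals, so they are repeated views of one difference and not separate findings.

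Whether the gap itself widened with age was not resolved. Among genotyped mice weighed at all 5 ages (n = 372) the mean over the ages was 35.4, 35.2 and 33.4 g, a difference of −2.001 g between the homozygotes (−3.20 to −0.80 g, adjusted p = 0.0266). The gain from 8 to 24 weeks was 10.7, 10.4 and 9.13 g in the same mice (n = 372), and the difference in gain of −1.57 g (−2.81 to −0.34 g) did not pass the threshold (p = 0.0172, adjusted p = 0.237). With weight at 8 weeks as a covariate, 0 traits were called at D14Mit107. The carcass difference then was −1.11 g (n = 371, adjusted p = 0.287) and that of body weight at 24 weeks −1.21 g (adjusted p = 0.482).

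**Figure D2:**
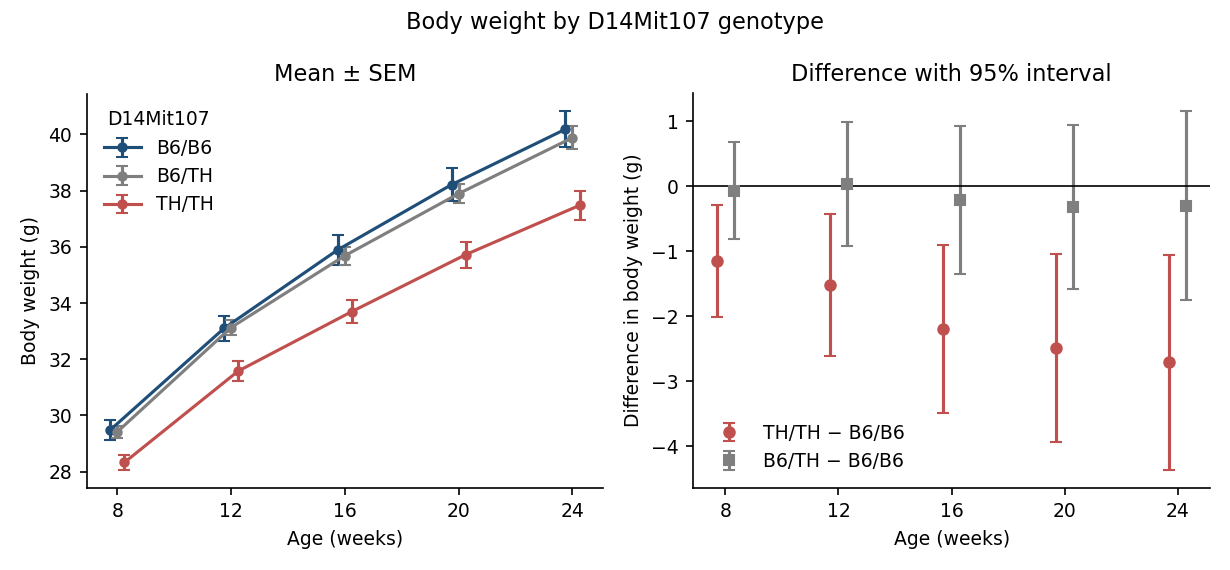
Left, body weight in g (mean ± SEM) against age in weeks for the 3 genotypes at D14Mit107. Right, difference in body weight in g from B6/B6 mice with its 95% interval. TH/TH mice were below B6/B6 mice by 1.15 g at 8 weeks and by 2.71 g at 24 weeks, and the interval of B6/TH against B6/B6 mice includes 0 at each age.

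The traits called at D14Mit107 were 5 of 39, carcass, body weight at 16, 20 and 24 weeks and weight at death, against 2.49% of all trait and marker pairs in the cross (66 of 2652). All 5 were lower in TH/TH than in B6/B6 mice. Calls in that direction made up 0.226% of all pairs, 6 over the 68 markers with the 5 at D14Mit107 included, and the 1 at another marker was cholesterol at 12 weeks at D3Mit304. Without adjustment, 15 of the 39 traits had a p under 0.05 at D14Mit107 (14.3% of all pairs did), made up of the 5 body weights, 7 of the 9 measures at dissection and 1 each of triglyceride, free fatty acids and insulin. By the number of calls D14Mit107 stood behind 5 markers, D1Mit215 (13), D1Mit206 (11), D11Mit86 (8), D1Mit113 (7) and D1Mit26 (6). For carcass weight it ranked second of 68 behind D11Mit86, and no marker other than these had a call for carcass. The order of markers by number of calls is a description and was not tested.

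Fat pad weights were lower in TH/TH mice in the sample, and none of the pads passed the threshold. The sum of the 5 pads ran from 0.61 g through 4.02 g to 8.30 g in B6/B6 mice, from 0.64 g through 3.85 g to 8.59 g in B6/TH mice and from 0.52 g through 3.19 g to 7.58 g in TH/TH mice. The means were 3.90 ± 0.199 g, 3.85 ± 0.129 g and 3.26 ± 0.162 g, a difference of −0.64 g (−1.16 to −0.12 g) or −16.4% between the homozygotes (adjusted p = 0.181, permutation p = 0.0143). The intervals of the sum and of 5 single pads lay below 0 taken one at a time, while no adjusted p was under 0.05.

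Pads under the skin and pads inside the abdomen gave values of the same sign. The inguinal pad, under the skin of the groin, weighed 1.06 ± 0.0604, 1.02 ± 0.0372 and 0.860 ± 0.0460 g (n = 81, 194 and 96 here and below, adjusted p = 0.191). The subscapular pad weighed 0.517 ± 0.0331 g, 0.535 ± 0.0254 g and 0.415 ± 0.0247 g (adjusted p = 0.169, permutation p = 0.0121), and 1 heterozygote had a value of 3.26 g. The epididymal pad, beside the testis, weighed 1.46 ± 0.0732 g, 1.45 ± 0.0449 g and 1.27 ± 0.0594 g (adjusted p = 0.354, permutation p = 0.0523). In each of these pads the heterozygotes again sat nearer to the B6/B6 mice than to the TH/TH mice.

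The mesenteric and retroperitoneal pads completed the set. The mesenteric pad, along the gut, weighed 0.409 ± 0.0226 g, 0.417 ± 0.0162 g and 0.339 ± 0.0194 g (adjusted p = 0.167, permutation p = 0.0112). The retroperitoneal pad, behind the kidney, weighed 0.462 ± 0.0272 g (n = 80), 0.432 ± 0.0164 g and 0.376 ± 0.0212 g (adjusted p = 0.294). Brown fat, the thermogenic depot, which is not among the 5 pads, averaged 0.217 ± 0.00971, 0.215 ± 0.00627 and 0.198 ± 0.0111 (adjusted p = 0.460, permutation p = 0.104) in a unit that the sources used here do not give.

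The share of each depot in the dissected fat was called for none of the 5 pads. The inguinal pad made up 27.0%, 26.3% and 26.6% of the 5 pads and the epididymal pad 37.9%, 38.4% and 39.4%, with adjusted p between 0.365 and 0.782 over the shares of the 5 pads. Together the pads were 9.33%, 9.33% and 8.39% of body weight (n = 371, TH/TH minus B6/B6 −0.94 percentage points, −1.97 to 0.08, adjusted p = 0.420). Over all derived traits, 1 of 21 was called at D14Mit107, the mean body weight over the ages (2.24% of the pairs of derived trait and marker were called in the cross).

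Carcass and pads were also compared at a given value of the other. At equal pad weight the carcass of TH/TH mice differed from that of B6/B6 mice by −1.12 g (−1.92 to −0.31 g, n = 371, p = 0.0139, adjusted p = 0.215). At equal carcass weight their pads differed by 0.07 g (−0.29 to 0.42 g, n = 371, adjusted p = 0.978). Neither passed the threshold, so a difference in carcass beyond that in fat, or in fat beyond that in carcass, was not resolved at this number of mice.

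**Figure D3:**
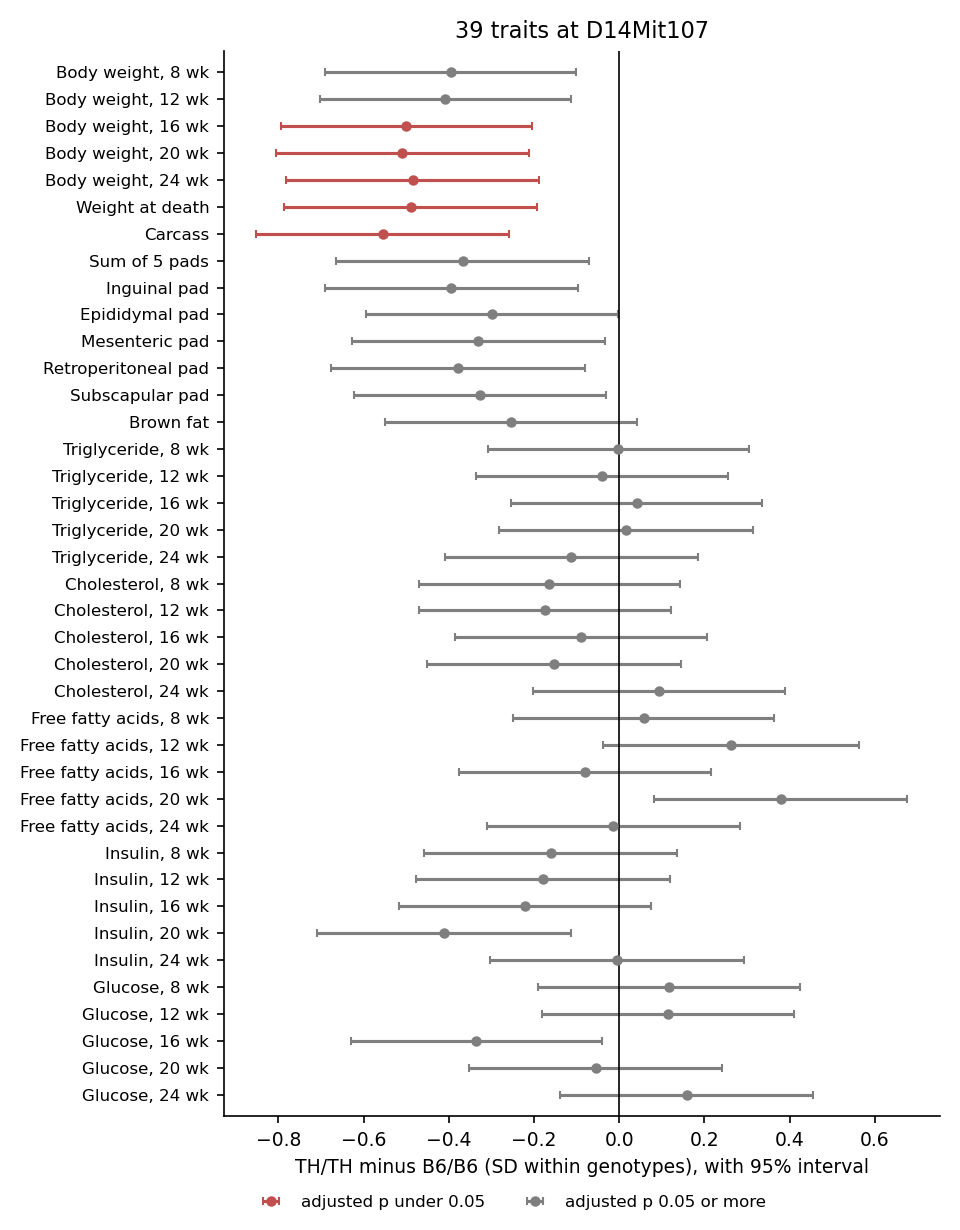
Difference between TH/TH and B6/B6 mice at D14Mit107 for each of 39 traits (rows), in units of the standard deviation within genotypes (x axis), with 95% intervals that are not adjusted for the number of traits. Red marks the 5 traits called by the F test among the 3 genotypes, from −0.48 SD (body weight at 24 weeks) to −0.56 SD (carcass).

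Plasma triglyceride, the lipid that marks the TH strain, did not differ detectably between the homozygotes at D14Mit107. Triglyceride averaged 165 ± 6.25, 169 ± 4.18 and 165 ± 5.80 mg/dl at 8 weeks (n = 75, 200 and 91). The means at 20 weeks were 179 ± 9.35 mg/dl, 182 ± 5.53 mg/dl and 181 ± 7.19 mg/dl, and the difference between the homozygotes was 1.27 mg/dl with an interval from −21.8 to 24.3 mg/dl. The values at 12 weeks (168, 165 and 166 mg/dl) and 16 weeks (163, 168 and 166 mg/dl) were as close, with adjusted p of 0.981 and 0.952.

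At 24 weeks triglyceride had another order, with the heterozygotes highest. It ran from 55.4 mg/dl through 163 mg/dl to 319 mg/dl in B6/B6 mice (n = 81), from 54.7 mg/dl through 180 mg/dl to 436 mg/dl in B6/TH mice (n = 197) and from 39.9 mg/dl through 153 mg/dl to 404 mg/dl in TH/TH mice (n = 96). The means were 172 ± 7.56 mg/dl, 193 ± 5.14 mg/dl and 164 ± 6.76 mg/dl, so that heterozygotes exceeded the midpoint of the homozygotes by 24.9 mg/dl (10.6 to 39.1 mg/dl). The 3 genotypes together missed the threshold (adjusted p = 0.0667, permutation p = 0.00181). The adjusted p ran from 0.0547 to 0.727 over 11 alternative settings and passed in 0 of them. The 0.727 came from the additive term alone, which does not measure an excess of heterozygotes. The next highest was 0.217, with TH/TH mice against all others.

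Total cholesterol was close in the 3 genotypes at every age. It averaged 2.85 ± 0.106, 2.93 ± 0.0716 and 2.69 ± 0.104 mmol/l at 8 weeks, and 3.20 ± 0.135, 3.16 ± 0.0815 and 2.98 ± 0.137 mmol/l at 12 weeks. At 16 weeks the means were 3.08 ± 0.112, 3.01 ± 0.0726 and 2.99 ± 0.0924 mmol/l and at 20 weeks 3.29 ± 0.112, 3.31 ± 0.0757 and 3.13 ± 0.105 mmol/l. At 24 weeks TH/TH mice had the highest mean, 3.30 ± 0.117 mmol/l, beside 3.18 ± 0.113 and 3.28 ± 0.0903 mmol/l. The adjusted p lay between 0.577 and 0.948 over the ages, and at 24 weeks the interval of the difference between the homozygotes ran from −0.24 to 0.46 mmol/l.

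Free fatty acids, the fuel that fat tissue releases in fasting, had the sign opposite to body weight at 3 of the 5 ages, without a call. At 20 weeks they averaged 0.926 ± 0.0499 (n = 81), 1.05 ± 0.0337 (n = 199) and 1.10 ± 0.0498 (n = 95), in a unit that the sources used here do not give, with ranges of 0.26 to 2.29, 0.22 to 2.29 and 0.24 to 2.79. TH/TH mice were thus 19.3% (2.52 to 36.1%) above B6/B6 mice (adjusted p = 0.302, permutation p = 0.0369), and D14Mit107 had the second lowest p of the 68 markers for this trait. At 12 weeks the means were 0.893, 0.949 and 0.991 (adjusted p = 0.660, permutation p = 0.229), and they were 0.815, 0.848 and 0.840 at 8 weeks, 1.03, 1.04 and 0.996 at 16 weeks and 1.02, 1.08 and 1.01 at 24 weeks. At those 3 ages the TH/TH mean differed from the B6/B6 mean by between −3.66% and 3.03%.

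Insulin, the hormone that drives glucose uptake and fat storage, was lower on average in TH/TH mice at all 5 ages and was called at none. At 20 weeks it ran from 0.02 ng/ml through 1.69 ng/ml to 23.2 ng/ml in B6/B6 mice (n = 80), from 0.04 ng/ml through 1.59 ng/ml to 16.0 ng/ml in B6/TH mice (n = 200) and from 0.07 ng/ml through 1.11 ng/ml to 19.7 ng/ml in TH/TH mice (n = 94). The means were 2.76 ± 0.382, 2.48 ± 0.201 and 1.84 ± 0.271 ng/ml (adjusted p = 0.150 on log10 values, permutation p = 0.00842). At 24 weeks the means of 2.99 ± 0.351, 2.52 ± 0.193 and 2.81 ± 0.353 ng/ml had the heterozygotes lowest (adjusted p = 0.942, permutation p = 0.804). Glucose was called at no age either, with adjusted p between 0.398 and 0.923. Its TH/TH mean differed from the B6/B6 mean by −6.10% at 16 weeks and by 3.27% at 24 weeks, with the other ages between.

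The spread of values around the genotype medians was called for 0 of 39 traits at D14Mit107 and for 0% of all 2652 pairs (Brown-Forsythe test, which compares absolute deviations from the median). Without adjustment, glucose at 24 weeks (n = 374, p = 0.0208) and at 16 weeks (n = 382, p = 0.0496) had a p under 0.05, which makes 2 of 39 traits beside 6.18% of all pairs.

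The position of the heterozygotes was measured with an additive term, the change per TH allele, and a dominance term, the distance of heterozygotes from the midpoint of the homozygotes. Carcass changed by −1.10 g per TH allele (−1.69 to −0.51 g) with a dominance term of 0.72 g (−0.09 to 1.54 g). Body weight at 16 weeks changed by −1.10 g per allele with a dominance term of 0.89 g (0.00029 to 1.78 g), and weight at death by −1.37 g with a dominance term of 1.18 g (0.04 to 2.32 g). Dominance was positive for each of the 5 called traits, and its interval, not adjusted, excluded 0 for 2 of them. For body weight at 16 weeks it included 0 in the mice weighed at all 5 ages (0.88 g, −0.02 to 1.77 g). The 5 traits are repeated views of one difference. A purely additive allele and a recessive TH allele were therefore not separated.

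The difference was located on chromosome 14 with LOD scores, the log10 odds of a locus at a position against none. In a scan without covariates carcass weight peaked at 3.86, 6.57 cM proximal of D14Mit107, above the genome-wide threshold of 3.37. Positions within 1.5 LOD of that peak reached from 27.6 cM proximal of D14Mit107 to the marker itself, where the map ends, so nothing distal of it was scanned. With 3 marker covariates the LOD of carcass was 3.66 at D14Mit107 and at most 3.77, above a threshold of 3.57, and body weight at 16 weeks reached 3.63. Those were the 2 of 39 traits past the threshold on chromosome 14, which is not adjusted for the number of traits. For carcass the highest LOD of the genome was 4.43, on chromosome 11. With log10 of all traits carcass still passed (3.90 against 3.67), while body weight at 16 weeks did not (3.40). The study's scan, with other thresholds, listed carcass but no body weight on chromosome 14. In the scan here with 3 marker covariates and no such logs, body weight at 20 and 24 weeks reached 3.33 and 3.16. In that scan the peak fell where a covariate entered the model, 4.57 cM from D14Mit107, and gives no finer position.

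**Figure D4:**
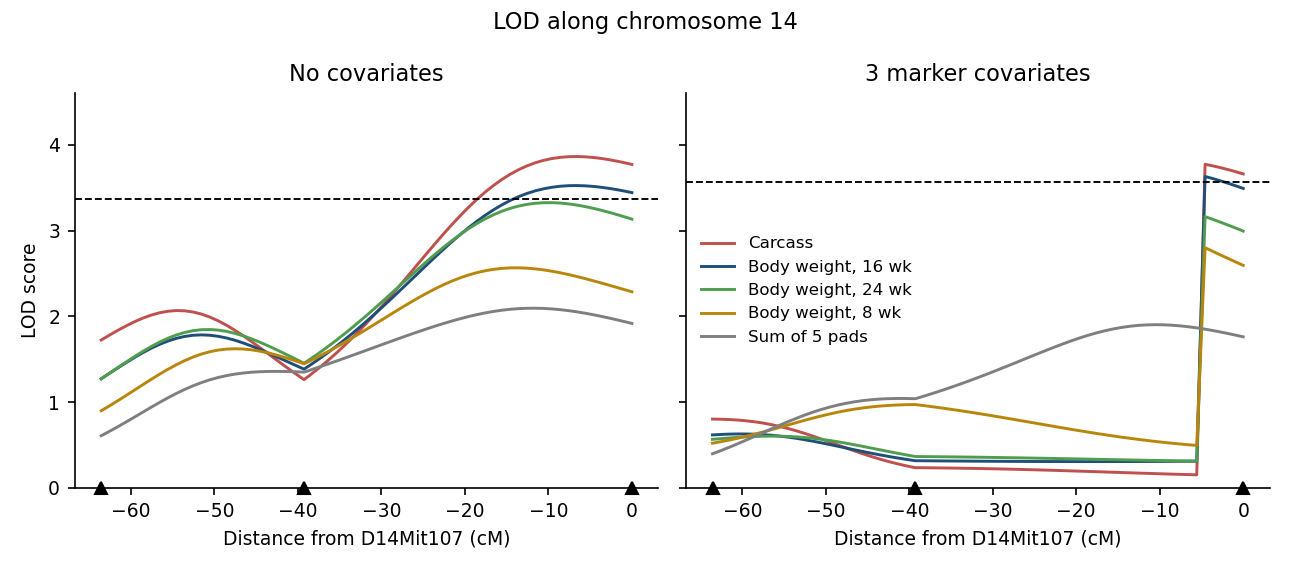
LOD score (y axis) along chromosome 14 by distance from D14Mit107 in cM (x axis, negative is proximal) without covariates (left) and with 3 marker covariates (right). Triangles are the 3 typed markers and dashed lines the genome-wide thresholds of 3.37 and 3.57. Carcass peaks at 3.86 on the left, and the step on the right lies where covariates within 5 cM are left out.

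The other 2 markers of the chromosome were weighed together with D14Mit107. Alone, D14Mit53 accounted for 2.13% and D14Mit102 for 1.52% of carcass variance in the 368 mice typed at all 3, and D14Mit107 for 4.67%. With the other 2 markers in the model D14Mit107 kept a partial p of 0.0024, while that of D14Mit102 was 1.00 and that of D14Mit53 was 0.190 (single F tests, not adjusted). D14Mit102 and D14Mit107 recombine often, with an estimated 28.5% recombination, and their genotypes were the same in 218 of 387 mice.

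Carcass weight was also read by joint genotype at D14Mit102 and D14Mit107. Among mice heterozygous at D14Mit102, carcass averaged 34.1 ± 0.778 g (n = 31), 33.98 ± 0.350 g (n = 125) and 32.0 ± 0.568 g (n = 42) by genotype at D14Mit107. The few mice that were B6/B6 at D14Mit102 and TH/TH at D14Mit107 averaged 31.1 ± 0.911 g (n = 9), and the reverse class averaged 34.03 ± 1.42 g (n = 7). Mice TH/TH at both markers averaged 32.1 ± 0.571 g (n = 45).

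D14Mit107 was set beside the markers at which the TH allele went with higher weight, D11Mit86 on chromosome 11 and D1Mit215 on chromosome 1. D11Mit86 had the lowest p for carcass in these same mice, while the study named D11Mit41 as the marker closest to its chromosome 11 peak. Each taken alone, carcass changed by 1.19 g per TH allele at D11Mit86 and by 0.77 g at D11Mit41. In a joint additive model carcass changed by −1.09 g (−1.66 to −0.52 g) per TH allele at D14Mit107, by 1.18 g (0.63 to 1.72 g) at D11Mit86 and by 0.89 g (0.34 to 1.43 g) at D1Mit215, and the 3 markers together accounted for 10.7% of its variance. The size of the effect at D14Mit107 differed from that at D11Mit86 by −0.09 g (−0.88 to 0.71 g) and from that at D1Mit215 by 0.20 g (−0.59 to 1.00 g), so the sizes were not told apart. For body weight at 24 weeks the 3 changes were −1.34, 1.67 and 1.53 g per TH allele. For the sum of the 5 pads they were −0.31, 0.40 and 0.62 g, and D14Mit107 differed in size from D1Mit215 by −0.30 g (−0.65 to 0.04 g).

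Carcass by joint genotype with D11Mit86 gave near-parallel values. By genotype at D14Mit107 it averaged 32.6 ± 0.816, 32.2 ± 0.601 and 30.4 ± 0.545 g where D11Mit86 was B6/B6, and 35.3 ± 0.843, 34.5 ± 0.593 and 32.5 ± 0.876 g where D11Mit86 was TH/TH. The interaction had p = 0.980 by permutation of residuals. With D11Mit41, the other chromosome 11 marker compared, it had a permutation p = 0.568.

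With D1Mit215 the values were less even. Body weight at 24 weeks in mice B6/B6 at D1Mit215 was 35.6 ± 1.12 g (n = 19) with B6/B6 at D14Mit107 against 35.9 ± 0.968 g (n = 25) with TH/TH there, and in mice heterozygous at D1Mit215 it was 41.8 ± 0.808 g (n = 41) and 37.9 ± 0.679 g (n = 47). The permutation p of that interaction was 0.0455 for body weight at 24 weeks and 0.124 for carcass. Neither held over the whole set of interactions (n = 372 and 371, adjusted p = 0.899 and 1.00).

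**Figure D5:**
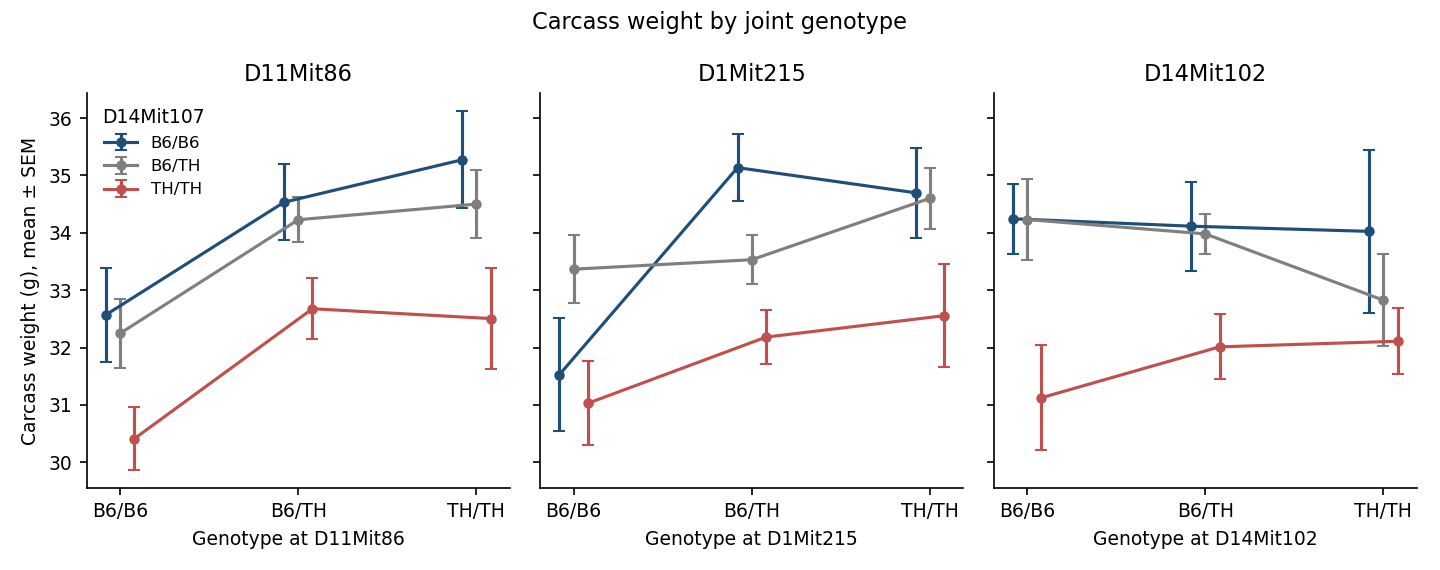
Carcass weight in g (mean ± SEM, y axis) by genotype at D11Mit86, D1Mit215 or D14Mit102 (x axis of each panel), with a line for each genotype at D14Mit107. In each class of D11Mit86 the TH/TH mean at D14Mit107 is the lowest, as in mice B6/B6 at both markers (32.6 g) against B6/B6 at D11Mit86 and TH/TH at D14Mit107 (30.4 g).

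Interactions of D14Mit107 with the markers on other chromosomes were called for 0% of 2535 pairs of trait and marker, and 140 pairs, 5.52%, had an unadjusted p under 0.05. The study's pair-wise scan by LOD score listed loci near D7Mit109 and on chromosome 14 as a significant pair for triglyceride at 20 weeks. It also listed loci near D5Mit101 and on chromosome 14 for cholesterol at 8 weeks. For triglyceride the study reported significantly lower values in mice B6/B6 at D14Mit107 and TH/TH at D7Mit109. Both pairs were named from that scan of these same mice. Their values below are a description and no independent support. The interaction tests here used marker genotypes alone, adjusted over 2535 pairs, and are not the same measure as that scan. Triglyceride at 20 weeks with D7Mit109 had a permutation p of 0.00391 (adjusted p = 0.890). In mice B6/B6 at D14Mit107 it averaged 192 ± 17.2 (n = 17), 199 ± 14.1 (n = 44) and 126 ± 9.31 mg/dl (n = 20) by genotype at D7Mit109, beside 187 ± 16.3, 183 ± 8.75 and 170 ± 17.1 mg/dl in mice TH/TH at D14Mit107. Cholesterol at 8 weeks with D5Mit101 had a permutation p of 0.0281 (adjusted p = 0.890).

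The lowest p of all interactions belonged to free fatty acids at 8 weeks with D13Mit205 (n = 360, p = 0.00105, adjusted p = 0.890). In mice B6/B6 at D14Mit107 the means were 0.585 ± 0.0574 (n = 20), 0.773 ± 0.0618 (n = 37) and 1.16 ± 0.141 (n = 18) by genotype at D13Mit205, and in mice TH/TH at D14Mit107 they were 0.884, 0.843 and 0.797. The others among the 5 lowest were triglyceride at 12 weeks with D17Mit54, body weight at 8 weeks with D7Mit231, the epididymal pad with D15Mit174 and the pair of triglyceride at 20 weeks above. They were chosen for their p, and none passed the adjustment.

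The genotype groups were checked for imbalance. The 3 genotypes made up 21.0%, 53.6% and 25.4% of the mice at D14Mit107, and a departure from 1:2:1 was not detected (chi-square adjusted over 68 markers, adjusted p = 0.456). At the proximal D14Mit53 it was (28.5%, 54.0% and 17.5%, same chi-square test, adjusted p = 0.0284). Markers of other chromosomes departed as well, with the lowest adjusted p at D10Mit11 (1.1e-09, same test). Plasma glucose of 300 mg/dl or more at any age was found in 1 of 82 B6/B6, 8 of 209 B6/TH and 5 of 99 TH/TH mice (permutation p = 0.390), and without these 14 mice the carcass difference was −2.53 g. Carcass weight was missing in 1, 15 and 3 mice (permutation p = 0.0625), and whether this affects the comparison was not tested.

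Carcass weight was set against weight at death minus the pads, which should differ from it by what was lost or left out at dissection. The remainder had a median of 1.55 g, and single mice ran from −3.52 to 12.4 g. It averaged 1.42 ± 0.102 g in B6/B6, 1.67 ± 0.0752 g in B6/TH and 1.53 ± 0.0384 g in TH/TH mice. With weight at death minus pads in place of the carcass column the difference between the homozygotes was −2.09 g (n = 371, adjusted p = 0.0281), an alternative chosen after seeing the data.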

How the data were processed

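Traits and genotypes of the F2 males stand in a table deposited by the authors with other units than expression data. Weights are in g, insulin is in ng/ml, cholesterol (total) in mmol/l, and both glucose and triglyceride in mg/dl. Glucose, cholesterol, triglyceride and insulin came from commercial assays and organ weights from dissection. No assay of free fatty acids is described in the sources used here. The unit of free fatty acids and brown fat is not given in the sources used here. Of the trait columns 39 were used, and 12 columns holding logs of them were not. The sum of the 5 pads was the deposited column. It differed by more than 0.005 g from the 5 pads added together in 19 of 371 mice, by 0.16 g at most. The shares of single pads used the 5 pads added together. The table carries no mouse number, so the 64 expression arrays of the series were not tied to genotypes and were not used.

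The markers, traits and tests were chosen with earlier results of these data known. All traits were described, with the means of the 3 genotypes for weights, pads and lipids and, for insulin and glucose, those of some ages or the range of differences. Insulin, glucose, the subscapular pad and brown fat were tested as log10 values, and values at or below 0 were dropped there. Each trait had between 365 and 385 values. Tests were F tests of 3 genotypes in linear models, with 95% intervals from the pooled variance, Benjamini-Hochberg adjustment over the whole grid (2652 tests for traits, 1428 for derived traits, 2535 for interactions) and 100000 resamples for permutation tests. LOD scores came from Haley-Knott regression at 1 cM steps with 3 covariates by forward selection, left out within 5 cM (a 10 cM window), and the threshold was the 95th percentile of 100 shuffles of each trait, pooled. The map was that of the study's marker table. Python 3.11.15, numpy 2.4.6, scipy 1.17.1 and pandas 2.3.3 were used, and the scripts were tested on simulated data. The number of mice limits the precision. The alternatives were other scales, subsets of mice, covariates, 1-df tests, maps and scans.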

Additional observations from a re-analysis of the deposited data

How the results depend on the processing

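The count of 5 traits called at D14Mit107 lay between 4 and 6 under 8 of 10 alternatives, and was 5 with TH/TH mice set against all others, an alternative chosen after seeing the data. It was 0 in the 319 mice with a value of all traits, where carcass had an adjusted p of 0.0587 and a difference of −2.26 g, and 0 with weight at 8 weeks as a covariate. Body weight at 24 weeks also lost its call with D11Mit86 and D1Mit215 as covariates (n = 370, adjusted p = 0.0617) and in mice with a call at every marker (adjusted p = 0.0664). Body weight at 12 weeks gained one without the mice with high glucose (n = 369, adjusted p = 0.0318). Carcass was past the threshold in 11 of 13 alternatives, 2 of them on the carcass column chosen after seeing the data, and TH/TH mice were lower in all 13. Traits past the LOD threshold on chromosome 14 were 2, and 4 without covariates and 1 with log10 of all traits. No paired analysis was possible because the replicate numbers name arrays, and no number ties a mouse of the genotype table to another.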

Other observations

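Mice were also ordered by how many alleles they carried that went with higher weight, the B6 allele at D14Mit107 and the TH allele at D11Mit86 and D1Mit215. The directions were read from these same mice, so the values are a description with no test. Carcass averaged 28.8 ± 0.954 g in the 5 mice with 0 such alleles, 32.2 ± 0.409 g with 2 (n = 93), 34.4 ± 0.408 g with 4 (n = 87) and 36.4 ± 1.48 g in the 5 mice with 6. Body weight at 24 weeks averaged 33.0 ± 0.921 g with 0 such alleles and 43.8 ± 2.13 g with 6. The ranges of carcass weight were 26.0 to 31.4 g with 0 and 33.8 to 40.8 g with 6, while the larger classes spanned both, from 23.1 to 46.1 g with 2 and from 24.1 to 47.2 g with 4 such alleles.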
